A study of Mus musculus with 6 samples.

Results

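The baseline landscape of free DNA ends was described in the 2 libraries titled Con, out of 6 libraries in the series. The other 4 libraries were not analysed here. BLISS, the assay used, repairs and tails the DNA ends present in fixed nuclei and joins an adaptor to them, so that sequencing reads begin where a double-strand break left an end. The material was neurons sorted from the forebrain of CK-p25 mice, in which removing doxycycline from the diet switches on p25, a truncated activator of the kinase Cdk5. As background, the Camk2a promoter, active in excitatory forebrain neurons, drives the doxycycline-controlled transactivator in this model. Both Con libraries carry the genotype CK-p25 and the treatment of 2 weeks of induction in their labels, as do the other libraries. The labels do not say what Con stands for, how its neurons were gated, or whether its replicates came from separate animals, so Con cannot be read as an uninduced or wild-type control from the labels alone. The spread between the 2 libraries may therefore be technical. The assay gives no RNA level, so the labelled cell type could not be checked against expression markers.

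As background, DNA breaks arise in neurons without any external damage. Topoisomerase II cuts both strands to release the twist that builds up when a gene is transcribed, and such cuts have been mapped to the starts of active genes. Very long neuronal genes are also known as places where breaks recur in dividing neural progenitors, where transcription meets replication. The questions asked here were whether the ends of Con neurons gathered in gene bodies, at gene starts or in larger domains, and which genes stood high in both libraries.

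Replicate 1 held 2300995 aligned reads and replicate 2 held 2273508. The 5′ base of a read marked an end, and a position on a given strand was counted once, however many reads began there. This left 1773598 positions in replicate 1 and 1590478 in replicate 2 on chromosomes 1 to 19 and X, after 27 windows of 10 kb in which reads piled up had been set aside. The genome mean was 0.693 positions per kb in replicate 1 and 0.621 in replicate 2. Below, relative density is the number of positions per assembled base divided by that mean, so that 1 is the genome mean. Paired values are replicate 1 first and replicate 2 second, and an error given as SD is over these 2 libraries. Intervals are exact 95% Poisson intervals and cover counting error only. With 1 group of 2 libraries no test between groups was possible, and no p-value is given.

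The landscape was close to flat at large scale. Sequence between genes had relative densities of 0.988 and 0.974, introns 1.01 and 1.02, and exons 1.03 and 1.11. Per unique 50-base word, that is, per base at which a word of 50 bases occurs once in the genome, the order of the first 2 turned, with 1.03 and 1.01 between genes and 0.973 and 0.981 in introns, and exons were at 0.977 and 1.05. The 1 kb on each side of protein-coding gene starts stood apart, at 1.43 in replicate 1 and 1.88 in replicate 2 (mean 1.66 ± 0.317, SD, n = 2). The corresponding regions around gene ends were at 0.987 and 1.02. Gene starts thus had the largest excess of these classes in both libraries, and its size differed between the libraries. Chromosome X was at 0.933 and 0.941, but only 76.7% of its 50-base words were unique, and per unique word it was at 1.08 and 1.09, above every autosome in both libraries. The autosomes ran from 0.944 to 1.04 in replicate 1 and from 0.951 to 1.03 in replicate 2.

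Gene bodies were considered where at least 30 kb were assembled, which gave 7629 genes. Their median relative density was 1.01 in replicate 1 and 1.03 in replicate 2, and the 5th and 95th percentiles were 0.685 and 1.33 in replicate 1 and 0.671 and 1.38 in replicate 2. The SD across gene bodies was 0.213 and 0.233, where counting error alone would give 0.151 and 0.16. Density in the 2 libraries was moderately related across these genes (Pearson r = 0.489, Spearman rho = 0.344, 7629 genes, a description without a test, since the genes share libraries and mappability). Of the 100 genes with the highest density in each library, 22 were shared. Most of the ranking among single gene bodies was therefore not repeated between the libraries at this depth.

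A gene body was called high at 1.5 times the genome mean or more in both libraries, which 25 of 7629 met (0.328%). Mroh2a, a gene of the HEAT-repeat family, was far above all others, with 110 positions in replicate 1 and 104 in replicate 2 over its 35.3 kb (chr1:88226986-88262289, mm10). This gave relative densities of 4.50 (3.69 to 5.42) and 4.74 (3.87 to 5.74), the first rank in each library. Trpm8, the cold and menthol receptor of sensory neurons, and Ugt1a5, a UDP-glucuronosyltransferase, lie beside Mroh2a on chromosome 1 and reached 2.27 and 1.96, and 2.18 and 1.73. Zfp981 (2.32 and 2.58) and Zfp985 (2.26 and 1.97) are zinc finger genes in a repeated gene cluster on chromosome 4. Only 63.9% and 72.5% of their 50-base words occurred once in the genome, so ends of near-identical neighbours may be counted in them or missed.

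The remaining named high bodies lay closer to the threshold. Srrm2, which encodes a spliceosome component of nuclear speckles, was at 1.81 and 2.16, and Zfp143, a transcription factor that binds promoters, was at 1.77 and 2.12. Ide, the insulin-degrading enzyme that also cleaves amyloid beta, was at 2.15 and 1.63. Cdk8, a kinase of the Mediator complex, stood at 1.73 and 1.68, Cplx1, a complexin that clamps synaptic vesicle fusion, at 1.65 and 1.64, Zfhx2 at 1.85 and 1.61, and Lyrm7, an assembly factor of the respiratory chain, at 1.61 and 1.61. When all gene start regions were removed from the bodies, 18 of the 25 stayed at or above the threshold. Zfp143 fell to 1.13 and 0.873 and Lyrm7 to 1.27 and 0.925, and Phkg1, Cat, Klhdc10, Son and Gm21992 also lost the call, so the ends of these 7 genes lay in part at gene starts. The least dense genes inside the threshold were Phkg1 (1.52 and 1.56) and Cat (1.52 and 2.11), while Sesn3 (1.49 and 1.64), Kdm4d (1.48 and 1.48) and Nfyc (1.48 and 1.78) lay just outside it.

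**Figure D1:**
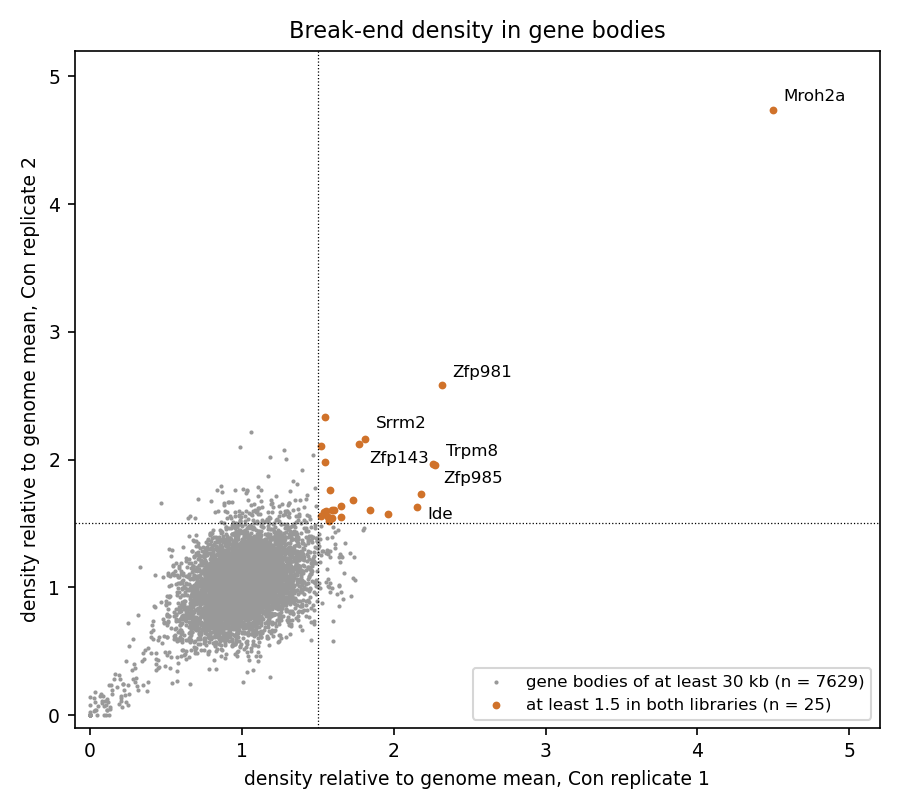
Relative density of break ends in 7629 gene bodies of at least 30 kb, Con replicate 1 on the x axis and Con replicate 2 on the y axis, both as multiples of the genome mean. Dotted lines mark 1.5; the 25 genes past both are coloured and Mroh2a stands alone near 4.50 and 4.74.

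At the other end, 145 gene bodies (1.9%) were at or below 1/1.5 of the genome mean in both libraries. Many of them are poorly mappable. A median of 30.8% of their 50-base words occurred once in the genome, against 96.4% for all gene bodies. In 29 of the 145, however, at least 90% of words were unique, among them 4 genes of a segment of chromosome 12 described below, Vipr2, Wdr60, Esyt2 and Ncapg2. Cphx3, Entpd4, Entpd4b, Ott, Srp54b and Vmn2r21 had no position in either library, and at most 0.888% of their words were unique. Gvin1 had 2 and 0 positions and Sprr2a2 had 0 and 2. Nearly all of their sequence has another copy in the genome, so the reads could not show whether they hold ends.

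Gene length made a small difference. Relative density was 0.973 and 1.05 in genes under 10 kb, 0.980 and 1.02 from 10 to 30 kb, 1.00 and 1.02 from 30 to 100 kb, 1.02 and 1.03 from 100 to 300 kb, and 1.05 and 1.06 over 300 kb (mean 1.06 ± 0.012, SD, n = 2). Density rose at every step of length in replicate 1 and did not in replicate 2. When density was taken per unique 50-base word, those 5 classes were at 0.961 and 1.04, 0.943 and 0.981, 0.948 and 0.966, 0.963 and 0.975, and 0.997 and 1.01 from the shortest to the longest, and density no longer rose at every step in replicate 1. Among the 567 genes over 300 kb, 351 were above the mean in both libraries and 72 below it in both. None reached 1.5 in both.

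The 5 longest genes showed how level this was. Fgfr2, a receptor for fibroblast growth factors whose annotated body is the longest here, had 2099 and 1810 positions, at 1.02 and 0.984. Of these, 55 and 73 lay in gene start regions, against at most 3 in each of the other longest genes. No single start held more than 51 and 58, so the annotated body of Fgfr2 takes in starts besides its own and differs from the others. Ptprd, a synaptic receptor phosphatase, was at 1.07 and 1.13, and Dmd, the dystrophin gene, also at 1.07 and 1.13. Lsamp, a cell adhesion molecule of limbic neurons, was at 1.09 and 1.10, and Cntnap2, a neurexin-related protein of the axon, at 0.987 and 1.00. With at least 1402 positions per gene in each library, none of the 5 was more than 1.13 times the mean.

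A list of 40 long neural genes in which breaks recur in neural progenitors had medians of 1.08 and 1.08, beside 1.01 and 1.03 for all gene bodies. Of the 40, 35 were above the genome mean in both libraries, against 36.3% of all gene bodies, and 3 were below it in both, against 26%. None was called high. These genes are long, so counting error moves them across the mean less often than it moves shorter genes, and these shares are not alike in precision. Of the 567 genes over 300 kb, 351 were above the mean in both libraries and 72 below it in both. Their medians were 1.05 and 1.06. All these shares are per assembled base and were not taken per unique word or at like GC share. Per unique word, genes over 300 kb as a class were at 0.997 and 1.01. Ntm (1.19 and 1.26) and Cadm2 (1.19 and 1.22), both adhesion molecules of the immunoglobulin family, ranked highest of the list of 40 by the lower library. The list of 35 synaptic genes of at least 30 kb had medians of 1.09 and 1.18. Its leading members were Homer1, a scaffold of the postsynaptic density (1.46 and 1.39), and Shank1 (1.41 and 1.34). No member of the synaptic, neuron marker, glial, vascular, break repair or cohesin lists was called high over its body, beside 0.328% of all gene bodies; Cplx1, described above, is not in the synaptic list. Of the 82 zinc finger genes of at least 30 kb, 3 were called high and 11 low, beside 0.328% and 1.9% of all gene bodies, and the 3 include Zfp981 and Zfp985 of the repeated cluster and Zfp143.

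Gene starts carried the sharpest feature of the landscape. Averaged over 21739 starts, relative density rose from near 1 beyond 2 kb to a peak in the 100 bases just before the start, of 4.43 in replicate 1 and 7.28 in replicate 2. The peak was equally present on both strands, at 4.34 and 6.91 for ends read in the direction of the gene and 4.53 and 7.66 for ends read against it. The bins above 1.2 lay between 600 bases before and 299 after the start in replicate 1, and between 800 before and 1199 after it in replicate 2. Gene ends showed no such peak, with at most 1.11 and 1.13 in any 100-base bin within 5 kb. Replicate 2 was thus higher at gene starts than replicate 1 and had a broader shoulder.

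The excess was unequal among genes. At 23.3% of starts in replicate 1 and 22.8% in replicate 2 there was no position at all within 1 kb, where 1.39 and 1.24 positions would lie at the genome mean. A start was called high with at least 10 positions in each library, which is 7.21 and 8.04 times the mean or more, and 389 of 21739 starts met this (1.79%). These 389 starts held 12.6% and 14.2% of all positions counted at starts. Density at starts was related between the libraries (Pearson r = 0.755, Spearman rho = 0.410, 21739 starts, description only), and 61 of the top 100 starts were shared, more than the 22 of gene bodies. Of the high starts, 30.8% had a protein-coding gene starting on the opposite strand within 1 kb, against 10.9% of all starts. Starts this close have overlapping regions, so the same ends were counted for both, here and in the shares above.

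The highest start was that of Stip1, a co-chaperone that links Hsp70 and Hsp90. Stip1 lies on the minus strand of chr19:7020702-7039967. Its start held 51 positions in replicate 1 and 58 in replicate 2 within 1 kb, at 36.8 (27.4 to 48.4) and 46.6 (35.4 to 60.3) times the genome mean, and was first in both libraries. Tomm40, the channel of the mitochondrial outer membrane translocase, had 39 and 43 positions, at 28.1 and 34.6. Eif2ak3, which encodes PERK, the kinase that slows translation under endoplasmic reticulum stress, had 36 and 47 positions (26.0 and 37.8). Sp1, the transcription factor that binds GC boxes, had 32 and 49 (23.1 and 39.4). Arid4a, a chromatin regulator that binds the retinoblastoma protein, was at 21.6 and 32.2, Myh10, a non-muscle myosin heavy chain, at 21.6 and 24.1, and Bcas3 at 19.5 and 31.4. Derl2, which acts in the removal of misfolded proteins from the endoplasmic reticulum, and Mis12, a kinetochore protein, start close together on opposite strands and share their count of 29 and 40 positions. At each of these 9 starts replicate 2 was above replicate 1 and the counting intervals of the libraries overlapped.

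**Figure D2:**
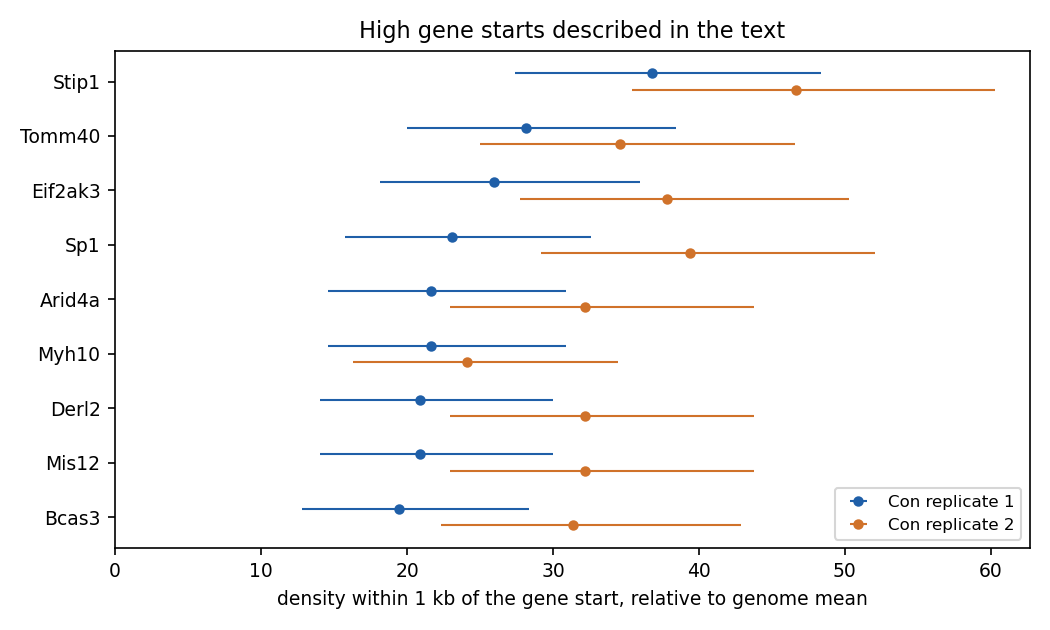
Relative density within 1 kb of the start for 9 of the highest gene starts, as multiples of the genome mean, one point per Con library with its exact 95% Poisson interval. Stip1 leads in both libraries (36.8 and 46.6), and in each gene the replicate 2 point lies to the right of the replicate 1 point with overlapping intervals.

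Below are stretches of 150 bases outside annotated exons near 5 of these starts, shown because they hold the ends and because they share a short word. They come from the mm10 reference, each on the strand of its gene from 5′ to 3′, and capitals mark every CCAAT or its reverse complement ATTGG, the letters of the CCAAT box. The stretches are chr7:19715526-19715675 (minus strand) for Tomm40, chr6:70844136-70844285 (plus) for Eif2ak3, chr15:102405784-102405933 (plus) for Sp1, chr12:71015833-71015982 (plus) for Arid4a and chr11:85352998-85353147 (plus) for Bcas3.
Tomm40: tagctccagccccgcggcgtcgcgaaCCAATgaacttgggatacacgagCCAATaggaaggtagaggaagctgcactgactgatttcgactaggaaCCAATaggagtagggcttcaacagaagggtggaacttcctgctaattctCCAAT
Eif2ak3: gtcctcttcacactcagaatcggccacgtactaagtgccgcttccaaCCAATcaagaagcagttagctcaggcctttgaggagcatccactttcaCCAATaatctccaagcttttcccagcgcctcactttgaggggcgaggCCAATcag
Sp1: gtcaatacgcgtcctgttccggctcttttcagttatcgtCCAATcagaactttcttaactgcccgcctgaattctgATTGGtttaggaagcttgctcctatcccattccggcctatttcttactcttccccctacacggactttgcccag
Arid4a: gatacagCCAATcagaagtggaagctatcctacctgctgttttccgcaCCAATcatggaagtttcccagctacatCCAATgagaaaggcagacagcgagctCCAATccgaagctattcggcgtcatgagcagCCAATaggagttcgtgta
Bcas3: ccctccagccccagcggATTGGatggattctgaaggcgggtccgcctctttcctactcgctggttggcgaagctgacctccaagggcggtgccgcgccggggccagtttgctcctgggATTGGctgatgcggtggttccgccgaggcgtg

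The stretch of Sp1 held 23 ends in replicate 1 and 33 in replicate 2 and has 2 boxes. That of Tomm40 held 19 and 25 ends and has 4 boxes, that of Bcas3 19 and 28 ends and 2 boxes, that of Eif2ak3 15 and 25 ends and 3 boxes, and that of Arid4a 12 and 18 ends and 5 boxes. No end in any of the 5 stretches lay inside the 5 bases of a box. The ends lay beside the boxes: in the Bcas3 stretch 17 of 19 and 26 of 28 ends were 16 to 50 bases from the middle of the nearest box, in that of Tomm40 17 of 19 and 15 of 25, and in that of Arid4a, whose boxes are closely spaced, 6 of 12 and 3 of 18. Other starts did not follow this closely. Myh10 and Derl2 have no box from 300 bases before to 50 after the start, and their stretches outside exons held at most 1 end in either library and are not shown. Mis12, which shares its count of positions with Derl2, has 6 boxes in that range of its own start. For Stip1 the stretch just before the start held 25 and 26 ends and has 1 box, with a median distance of 67 and 66.5 bases between an end and the nearest box.

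The CCAAT box is the site of NF-Y, a trimeric factor that binds this word in the promoters of many widely used genes. The word was examined from 300 bases before to 50 bases after each start, on both strands. Its presence marked the high starts: 89.5% of the 389 high starts held at least 1 box, against 42.6% of all 21739 starts, and 78.9% against 14.9% held at least 2. All 512 words of 5 bases, each pooled with its reverse complement, were compared in the same way, and CCAAT had the largest difference in share between high starts and all starts, 46.9 percentage points. The next words were CAATC, which overlaps CCAAT (81.2% against 37.1%), and the GC-rich CCGCC (91.0% against 59.2%). The choice of this word was made after the values had been seen.

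Density at gene starts climbed with the number of boxes. Within 1 kb of the start it was 1.19 and 1.44 with no box (12488 starts), 1.41 and 1.87 with 1 box (6017), 2.12 and 3.09 with 2 (2243), 3.35 and 5.31 with 3 (674), and 6.39 and 10.2 with 4 or more (317). The share of starts called high rose from 0.328% with no box to 0.681%, 4.06%, 12.9% and 40.7%. Each step was upward in both libraries, and from 1 box onward it was larger than the gap between the libraries at the lower step. The mean GC share of the examined stretch was 55.4% with no box, 52.9% with 1 or 2, 53.9% with 3 and 56.0% with 4 or more. In the peak bin just before the start, starts with no box reached 1.74 and 2.51, starts with 1 box 4.24 and 7.14, and starts with 2 or more boxes 17.4 and 29.1.

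**Figure D3:**
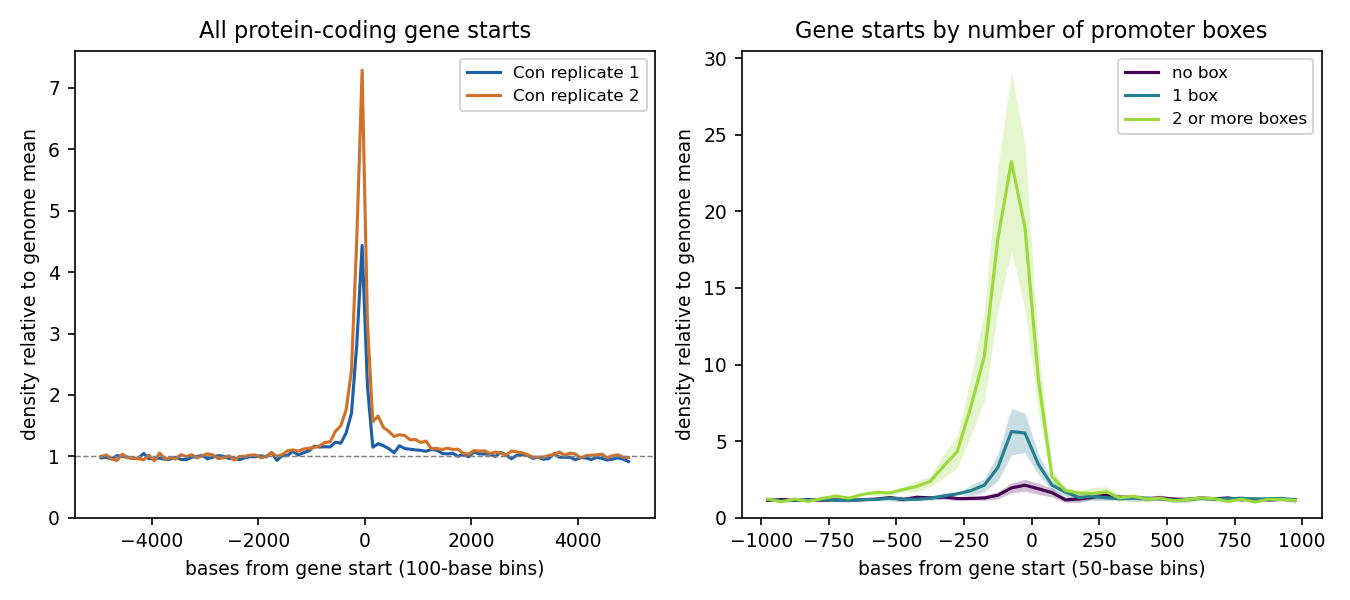
Relative density of break ends against distance from gene starts: left, all protein-coding starts in 100-base bins for each Con library; right, starts grouped by the number of CCAAT boxes from 300 bases before to 50 after the start, in 50-base bins, the line being the mean of the 2 libraries and the band spanning both. The peak before the start is 4.43 and 7.28 over all starts, and 17.4 to 29.1 where there are 2 or more boxes.

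The relation with the box held at starts of like base composition in 4 of 5 groups. The starts were split into 5 groups of like size by GC share, group 1 being the most AT-rich. Starts with 2 or more boxes were at 1.75 and 2.41 in group 2 against 1.07 and 1.26 with none, and at 3.02 and 4.85 against 1.21 and 1.45 in group 3. They were at 4.37 and 6.95 against 1.34 and 1.70 in group 4, and at 3.97 and 6.27 against 1.26 and 1.58 in group 5. In group 1 they were at 1.11 and 1.23 against 1.06 and 1.14. The box went with high density at starts of middle and high GC share, and not beyond the gap between the libraries at AT-rich starts.

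Ends were placed around the box in a set pattern. At 16 to 50 bases from the middle of 13349 boxes at gene starts, relative density was 14.7 in replicate 1 and 25.5 in replicate 2 (mean 20.1 ± 7.69, SD, n = 2), the highest of the 512 words in both libraries. The next words were CAATC (11.3 and 19.3) and AATCG (10.5 and 16.7), which can overlap a box. In the 10 bases from its middle outward on the downstream side, density fell to 3.71 and 5.85. Seen base by base, ends read along the strand of the box peaked 18 bases before its middle in replicate 1 and 17 in replicate 2, at 38.7 and 60.3, and again 26 to 27 bases after it, at 31.3 and 52.1. Ends read on the other strand peaked 19 bases after the middle, at 40.2 and 70.6, with further peaks 21 and 31 bases before it, at 37.0 and 65.1 and at 30.7 and 56.2. The positions of these peaks matched to within 1 base between the libraries, while their heights differed.

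**Figure D4:**
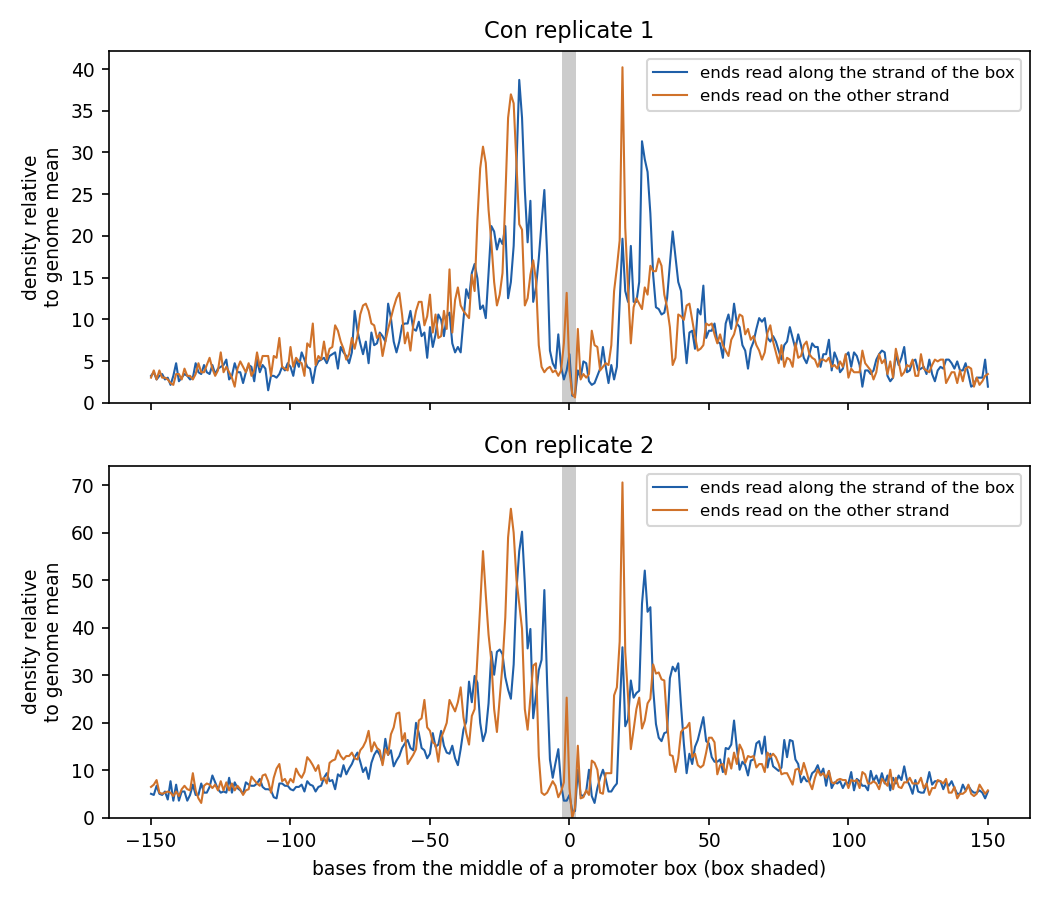
Relative density of break ends at each base around 13349 CCAAT boxes at gene starts, upper panel Con replicate 1 and lower panel Con replicate 2, with distance counted along the strand of the box and ends separated by the strand they were read on. Both libraries have peaks at about 18 bases before and 19 bases after the middle of the box and lower values over the shaded box.

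The pattern did not follow the word elsewhere. Around 4362169 copies of CCAAT more than 5 kb from any protein-coding start, the density 16 to 50 bases away was 0.997 and 1.00. The bases within 50 of the promoter boxes held 0.454% of all positions in replicate 1 and 0.785% in replicate 2, at 9.91 and 17.1 times the genome mean. In the examined stretch of the high starts, 90.0% and 90.9% of ends lay within 50 bases of a box, against 57.1% and 62.3% over all starts. High starts hold more boxes, and these distances covered 53.5% of the bases of the stretch at high starts and 16.0% at all starts. Leaving out the 389 high starts, the density 16 to 50 bases from the remaining 12363 boxes was 9.06 and 16.9.

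Other promoter words did less. RefSeq promoters (GRCm38.p6) with a start within 500 bases of the annotated one were found for 13785 starts, 302 of them high, and were searched on both strands for 5 motifs from 250 bases before to 50 after the start. The CCAAT box was in 92.4% of the high ones and 39.1% of all. The GC box of the Sp and Klf families, GGGCGG, was in 73.8% against 51.7%, the Ets motif CCGGAAG in 16.2% against 13.5%, and the E-box CACGTG in 10.9% against 8.69%. The TATA box TATAAA was in 4.97% of the high ones against 11.3% of all, and starts holding it were less dense (1.21 and 1.48) than those without it (1.64 and 2.25). At 16 to 50 bases from a match, density was 20.1 and 34.8 for the CCAAT box and 4.51 and 7.46 for the GC box. A match of letters is a description and was not taken as a bound site.

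Gene groups differed at their starts. Summed over all starts, the density was 1.49 and 1.98, and 1.79% of all starts were called high. The 30 genes of break repair stood at 2.98 (2.48 to 3.55) and 4.26 (3.63 to 4.98), and 3 of their starts were high. These included H2afx, the histone variant phosphorylated at breaks, with 18 and 17 positions (13.0 and 13.7), and Top2a, the topoisomerase II of dividing cells, with 18 and 15 (13.0 and 12.1). The 30 early response genes, which neuronal activity induces, were at 2.79 (2.30 to 3.34) and 4.07 (3.45 to 4.78). Of these, 4 starts were high, led by Per1, a clock gene (18 and 24 positions), and Klf6, a transcription factor (14 and 29). Replication-dependent histone genes were at 2.31 and 3.86 over 67 starts and a list of 30 broadly expressed genes at 2.28 and 3.78, with 3 and 0 high starts. In the last list Atp5b, a subunit of ATP synthase, had 8 and 14 positions and Hspa8, a chaperone, 6 and 12.

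The lists of neuronal genes had few high starts, as had all starts (1.79%). The 40 synaptic genes were at 0.955 and 1.63 (1.29 to 2.02), so that the level over all starts lay within the interval in replicate 2 and above it in replicate 1, and none was high. The 10 neuron markers were at 1.01 and 2.17 on 14 and 27 positions. The starts of 16 cohesin and chromatin architecture genes were at 1.26 and 2.16, and those of 40 recurrent-break long genes at 1.62 and 2.23, with 1 high start, that of Fhit (10 and 13 positions). Ribosomal protein genes, among the most transcribed of all, were at 1.61 and 2.47 over 78 starts, with Rpl13a alone called high (14 and 21 positions). Zinc finger genes were at 1.74 (1.63 to 1.86) and 2.51 (2.37 to 2.66) over 365 starts. Of these, 4 were high, beside 1.79% of all starts, led by Zfp687 (18 and 34) and Zfp143 (16 and 28).

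No start was high in the lists of genes known mainly from other cell types. At 1.79% of all starts, lists of 6 or 7 genes are too short for this to show anything, and in the most AT-rich of 5 groups of starts, where the receptor genes' mean GC share of 36.7% and 36.8% falls, 0.0925% were high. Starts of 1093 olfactory receptor genes were at 1.09 and 1.06 and those of 327 vomeronasal receptor genes at 0.761 and 0.866. Astrocyte markers were at 0.618 and 0.689 on 6 and 6 positions, oligodendrocyte markers at 1.13 and 1.15 on 11 and 10, microglia markers at 0.961 and 1.47 on 8 and 11, and vascular markers at 0.961 and 1.07 on 8 and 8. Counts this small leave the intervals of the glial and vascular lists overlapping those of the neuron markers in both libraries, so these lists could not be told apart by density at this depth.

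Larger domains showed few outliers. Of 25624 windows of 100 kb, 35 (0.137%) were at 1.5 or more in both libraries and 862 (3.36%) at 1/1.5 or less. The low windows had a median of 18.1% unique words against 92.6% for all windows. Windows with under 50% unique words had median densities of 0.188 and 0.177 per assembled base, but 0.981 and 0.977 per unique word. Several of the 6 highest windows lay in poorly mappable sequence, such as chr1:85200001-85300000, with 37.6% unique words, at 2.16 and 2.53, and chr13:12800001-12900000, which holds Prl2c3, at 2.09 and 1.98. The windows chr4:147400001-147500000 with Zfp982 (2.57 and 2.48) and chr16:3200001-3300000 (2.72 and 2.40) had 74.7% and 74.1%.

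The highest window was of another kind. It was chr1:88200001-88300000, at 4.86 (4.36 to 5.41) and 4.59 (4.07 to 5.15) on 337 and 285 positions, with 97.1% unique words. In 10-kb bins the rise was abrupt: density was at most 2.31 below chr1:88210001 and between 3.22 and 8.08 in each of the 10 bins from there to chr1:88310000 in both libraries, then 1.59 and 1.45 in the next bin. The segment covers Mroh2a and reaches into the Ugt1a cluster and Trpm8. Density was raised across all 10 bins with abrupt edges, but was uneven among them. It was highest at 8.08 and 7.72, in chr1:88220001-88230000, and was 3.75 and 3.86 in chr1:88240001-88250000. The copy number of this segment was not tested.

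A low segment lay on chromosome 12. Among windows with at least 80% unique words there were 8 low stretches, and chr12:116100001-116600000 was the only one longer than 1 window, with 5 in a row. Its density was 0.505 and 0.473 (mean 0.489 ± 0.0226, SD, n = 2). Within it, Vipr2, a receptor for vasoactive intestinal peptide, was at 0.505 (0.324 to 0.752) and 0.610 (0.399 to 0.894), Wdr60, a dynein component of cilia, at 0.432 and 0.397, Esyt2, an extended synaptotagmin, at 0.591 and 0.601, and Ncapg2, a condensin II subunit, at 0.618 and 0.469. Ptprn2, which begins in the segment and extends far beyond it, was at 0.927 and 1.07. This rule of runs was added after the data had been seen. As background, a Camk2a-tTA driver line widely used for forebrain transgenes has been reported to lack DNA at this locus; the labels name no driver line, and its part here was not tested. The stretch chr18:60917118-60925617, just before the start of Camk2a, was looked at because the Camk2a promoter drives the transactivator in this model. It held 13 and 29 positions, at 2.21 and 5.49. It ends at the gene start and so includes the bases where density over all starts peaks. The 10 kb from the start onward were at 1.15 and 2.25. Why these values were raised was not tested.

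**Figure D5:**
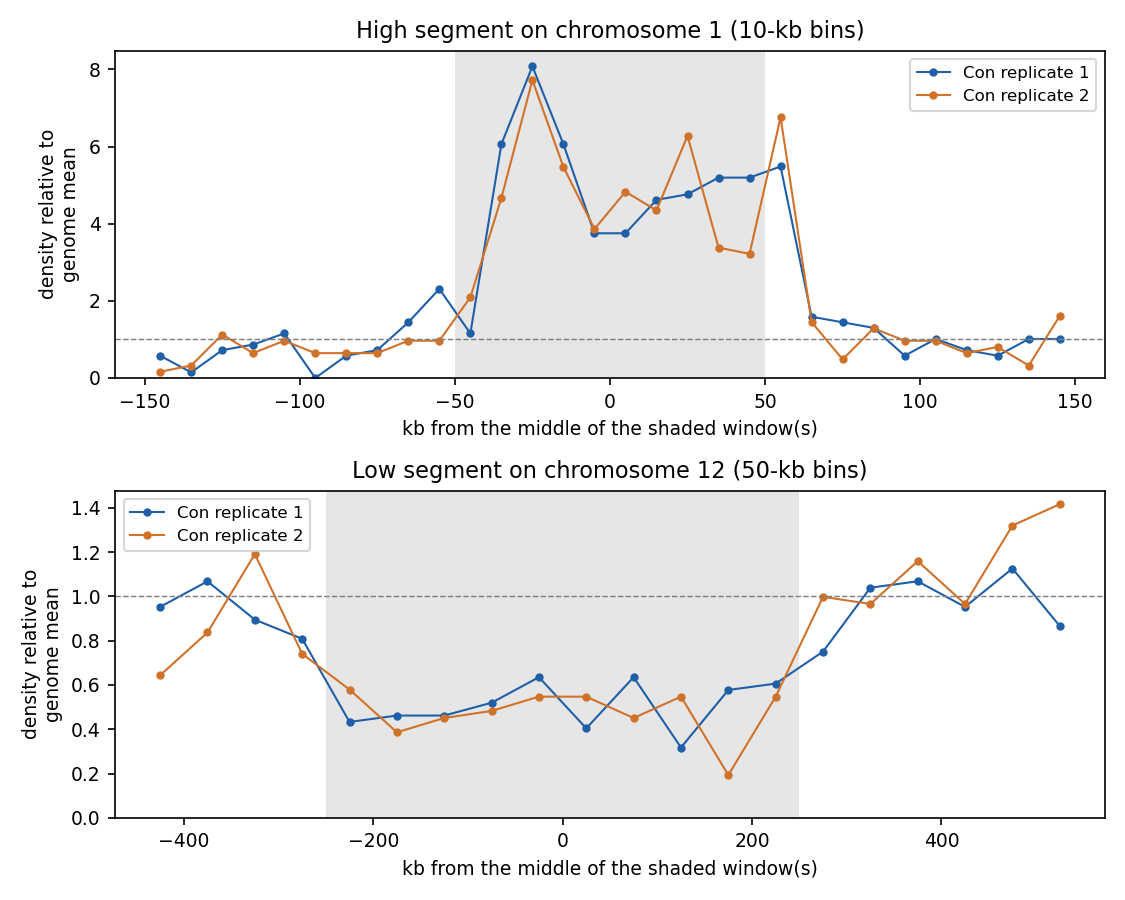
Relative density of break ends along the high segment of chromosome 1 in 10-kb bins (upper) and the low segment of chromosome 12 in 50-kb bins (lower), against distance in kb from the middle of the shaded windows, 1 line per Con library. Density steps up to between 3.22 and 8.08 in the first and down to about 0.489 of the genome mean in the second, in both libraries.

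The ends themselves were not random in base. Read from 5′ to 3′, the base just before an end was T in 44.8% and 48.4% of positions, against 29.1% in the genome, and the first base of the read was G in 31.7% and 35.4%, against 20.9%. At 2 bases before the end C was at 31.4% and 32.0%, against 20.9%. A blunt cut leaves a minus-strand end at the base directly before a plus-strand end. Such a partner was found for 0.0716% of plus-strand positions in replicate 1 and 0.124% in replicate 2. A minus-strand end 1 base further before was found for 0.109% and 0.205%, the highest of all offsets up to 20 bases. At 20 bases further before, the shares were 0.0485% and 0.0560%. The 2 libraries shared 26853 positions, which is 1.51% and 1.69% of each.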

How the data were processed

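BLISS reads of the 2 Con libraries were used as deposited. Per the submitters' processing notes the authors aligned reads to mm10 with Bowtie2 and made BED lines with SAMtools and bedtools (no version is given), and per the series' design text duplicates had been removed by molecular identifier. In the deposited BED files a line stands for 1 read, and its score, as the authors deposited it, is the mapping quality, from 11 to 42. Lines were reduced to distinct 5′ ends per strand, so that no position counts more than once. If duplicates had been removed as stated, lines at the same position come from separate molecules, and repeated ends at 1 base are not counted here. Windows of 10 kb with over 20 times the median reads of nonzero windows (16) were left out of features and genome mean.

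Features came from GENCODE vM21: protein-coding gene bodies, 1 kb on each side of the first base of each gene, and 100-kb windows. Mappability was the share of 50-base words that occur once in the reference. Counting and plots used Python 3.11.15 with numpy 2.4.6, scipy 1.17.1 and matplotlib 3.10.9. The calling and uniqueness steps were tested on simulated data.

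With 2 libraries of 1 group, nothing was tested; a feature was called where both libraries passed a threshold. Depth limits single gene starts most, since 1.39 and 1.24 positions are expected at each, and the intervals treat positions as independent. Named gene bodies are the 12 highest and 8 lowest of at least 30 kb, the 5 longest genes, and up to 2 leading members of each of 16 lists; named starts are the 10 highest (1 of them is not reported here) and up to 2 leading members of each list; named windows are the 6 highest and 4 lowest, ranked by the lower library. Genes of the chromosome 12 segment and those near a threshold were named by place. Not every list member so ranked is printed. The gene lists and the part of the data described were chosen with earlier results of these data known, and the analyses of 5-base words, motifs, single runs and window runs after seeing the values. Alternatives covered duplicates, mapping quality, piled-up windows, mappability, GC share, depth, chromosome X, feature sizes, thresholds, single libraries and sequencing runs.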

Additional observations from a re-analysis of the deposited data

Results flagged for a closer look

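Reads also fell outside chromosomes 1 to 19 and X, in data that none of the values above use. The mitochondrial genome held 3104 reads in replicate 1 and 5820 in replicate 2, which is 0.135% and 0.256% of each library. Per base of the reference this is 158 and 241 times the genome mean in distinct positions. The number of mitochondrial genome copies was not measured, so this is not a density per copy. Chromosome Y held 191 and 180 reads, at 0.00244 and 0.00263 of the genome mean. There are no control samples for these reads, and all 4 counts exceed the 3 counts that a count of 0 allows. The chromosome Y densities are per assembled base and were not taken per unique word. Whether these few reads came from chromosome Y or were misplaced there was not tested.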

How the results depend on the processing

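No paired analysis was possible because the values come from 1 group and from no test. Alternatives using 1 sequencing run and those for the CCAAT box and the chromosome 12 segment were chosen after seeing the data. The 25 high gene bodies became 45 with every read counted, 50 and 43 in sequencing runs 1 and 2, 190 and 1 at minimum lengths of 10 and 100 kb, and 248 and 2 at a lower threshold and at 2 times the mean, with 82 to 162 when 1 library was left out. Of the 45, 17 were among the 25; of the 23 high per unique word, 11 were. The 389 high starts became 725 with every read, 45 and 164 in the runs, 254 within 2 kb, 794 and 39 with at least 5 and 20 positions, 177 at 10 times the mean, and 443 to 853 with 1 library left out. The 35 high windows became 82 with every read, 93 per unique word, 76 in run 1, 197 of 50 kb, 0 of 1 Mb, 457 and 5 at a lower threshold and at 2 times the mean, and 76 to 176 with 1 library left out. With 1 library left out, only the other has to pass. The density of genes over 300 kb, 1.06, was 1.00 per unique word and 1.03 with the GC smooth removed, and 1.05 to 1.06 with 1 library left out; gene starts were at 1.43 to 1.88. Of the top 100 gene bodies, 11 were shared in run 1, against 22. Density beside the CCAAT box stayed between 13.0 and 25.4 under all 5 alternatives, and was 14.7 to 25.5 with 1 library left out. The chromosome 12 segment was at 0.465 per unique word and 0.473 to 0.505 with 1 library left out. Sprr2a2, Gvin1 and Olfr56 changed side, to 2.08, 1.21 and 1.00 per unique word. Phkg1 and Zfp143 were below the genome mean in replicate 2, at 0.641 and 0.873, without start regions, as was Lyrm7, at 0.925. Of the alternative values for named gene bodies, starts and windows, 439 of 548, 389 of 462 and 67 of 88 lay within 1 SD between the libraries of the value given. For gene bodies and starts these tallies include the values with 1 library left out. With 2 libraries, such values lie within 1 SD of their mean by construction, so they show no stability. Why each count moved was otherwise not tested.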

Other observations

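The 27 windows set aside for piled-up reads are described here as values only, since their read counts chose them. In 4 adjoining windows, from chr9:3000001 to chr9:3040000, between 7.46% and 21.9% of 50-base words were unique, and distinct positions in the first of them were at 83.7 and 85.9 times the genome mean. The window chr2:98660001-98670000 held 62892 and 54636 reads on 1621 and 1534 positions, and a run of 7 windows over Sfi1 on chromosome 11, from chr11:3130001 to chr11:3200000, had between 21.2 and 40.5 times the genome mean in distinct positions. The window chr17:39840001-39850000, which overlaps an annotated ribosomal RNA gene, was at 67.8 and 90.7.

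The Sfi1 run and the ribosomal RNA window lay in mostly unique sequence, with 87.1% to 96.9% unique words, as did several other windows. Malat1, the nuclear long noncoding RNA that is among the most abundant RNAs of neurons, overlaps chr19:5800001-5810000, which was at 8.80 in replicate 1 and 13.8 in replicate 2 on 61 and 86 positions. A window of Chl1, a neural adhesion molecule, was at 10.7 and 12.2 on 74 and 76 positions. By contrast, the window holding Rpl4 and several small nucleolar RNA genes had 370 and 697 reads on only 13 and 10 positions. Its pile was deep at single positions, while its distinct positions were at 1.88 and 1.61 times the genome mean.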
